A study of Mus musculus with 125 samples.

Results

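Usp17l, Tdpoz, Pramef with Pramel, and Tcstv are mouse gene families whose members sit in clusters of similar copies. The genes described here were chosen by symbol and by detection: every gene whose symbol starts with Usp17l, Tdpoz, Pramef, Pramel or Tcstv and that had at least 1 count in any of the 121 embryos kept. The rule found 27 of 43421 genes: 6 Usp17l, 5 Tdpoz, 14 Pramef or Pramel and 2 Tcstv genes. No gene with such a symbol was without counts. The least detected one, the gene named Pramel, had 7 counts in 2 embryos, and the next, Usp17le-ps, had 87.8. A filter on low counts was passed by 26 of the 27 (all but Pramel), so counts of called members are out of 26 genes tested, unless an alternative analysis changed the filter.

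The mouse embryo switches on most of its own transcription at the 2-cell stage, and these families are among the genes known for a short burst of expression at that time. Dux, a double homeobox transcription factor, and the Zscan4 genes mark the same burst, which a small share of mouse embryonic stem cells also enters. Usp17l genes code for deubiquitinating enzymes, which remove ubiquitin from proteins. Tdpoz proteins join a TRAF domain to a POZ domain, as does Spop, a substrate adaptor of cullin ubiquitin ligases. Pramef and Pramel genes belong to the Prame family of leucine-rich repeat proteins, of which Pramel6 and Pramel7 are known from the inner cell mass and from naive pluripotency. Tcstv1 and Tcstv3 are named as 2-cell-stage transcripts and have been linked to telomere lengthening in stem cells.

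The study sequenced the RNA of single embryos at the 2-cell stage that came from zygotes with 1 visible pronucleus (1PN), with 2 (2PN), or from eggs developing without sperm (parthenotes). Zygotes were picked at 10 h, lost their second polar body to a micromanipulator, and were collected as embryos 34 h after fertilization. The strain label C57BL/6 xJF1/Ms, written BxJ here, covered 43 2PN embryos, 11 1PN embryos and 8 embryos that were scored 1PN but that the submitters called parthenogenetic from their reads, written uniparental here. The reverse label JF1/MsxC57BL/6, written JxB, covered 21 2PN, 3 1PN and 4 uniparental 1PN embryos. The last group was 31 parthenotes of strain C57BL/6. The labels do not say which strain was the mother. The protocol text that they carry is the same for every group, so the way the parthenotes were made was not given in the sources used here. Between the C57BL/6 parthenotes and the BxJ 2PN embryos, the lack of a paternal genome and the lack of JF1/Ms alleles cannot be told apart. The uniparental embryos of each cross likewise lack the alleles of 1 strain. Against the 2PN embryos of their cross, that lack and the lack of a paternal genome cannot be told apart either. Each library was 1 embryo and nothing was pooled. No label says which embryos came from separate matings, so p-values measure the spread between these embryos. Another 4 libraries, labelled dead or of low quality, were left out.

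Total gene counts ran from 533276 to 4887274 per embryo, with a median of 3392406, and 2 embryos, both JxB 2PN, had under 1000000. Genes that mark the 2-cell stage were detected in nearly all of the 121 embryos: Zscan4c in 118, Zscan4d, Zfp352 and Obox6 in 120 each and Obox3 in 121. Levels are given as CPM, counts of a gene per 1000000 gene counts of the embryo. They are not corrected for transcript length, so they compare 1 gene across embryos. The values are estimated counts that need not be whole and the counting of reads that match several copies was not given in the sources used here. Of the values above 0, 92.1% of the Tcstv values, 67.1% of the Tdpoz, 49.6% of the Usp17l and 30.5% of the Pramef and Pramel values were not whole, against a median of 15.8% over 30065 genes. By member the share was 34.9% to 92.6% for 19 of the 27, for which the copy that a read came from is uncertain. Family sums could be not whole as well, such as 52.33 Tcstv counts in JxB uniparental embryo 1. Summing the named members therefore does not remove this uncertainty. For the other 8 members, all Pramef or Pramel genes, the share was 0% to 7.44%, below that median, among them Pramef8, Pramef12, Pramef20 and Pramel7. For bulk RNA of an embryo, fewer active cells and less RNA per cell cannot be told apart.

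On GRCm38, the mouse genome build that the submitters' processing notes name, the 6 Usp17l genes lie on chromosome 7 between 103250086 and 104862667 and the 5 Tdpoz genes on chromosome 3 between 93651542 and 93961314. Both Tcstv genes lie on chromosome 13 between 119893387 and 120318261. Of the 14 Pramef and Pramel genes, 9 lie on chromosome 4 between 143394441 and 144408467. Pramel6 and Pramel7 lie on chromosome 2 between 87489088 and 87510865, and Pramel3 and Pramel on chromosome X between 135270850 and 135312636. RefSeq (GRCm38.p6) had an entry for 26 of the 27, Pramef12os being the one without. It lists the Pramef genes under newer symbols, for example Pramef6 as Pramel11, Pramef8 as Pramel12 and Pramef12 as Pramel13.

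Start regions are shown for 4 Usp17l genes and for the pair Pramel4 and Pramel5, because the copies of these families did not move together between groups. Each window holds 250 bases before and 50 bases after the annotated start of the gene, 5′ to 3′ on the strand of the gene, from RefSeq (GRCm38.p6). The Usp17l windows are chr7:104842534-104842833 (minus strand) for Usp17lb, chr7:104856766-104857065 (plus strand) for Usp17la, chr7:103416446-103416745 (plus strand) for Usp17lc and chr7:103252456-103252755 (minus strand) for Usp17ld. Capitals mark the letters TATAAA of Usp17lb, Usp17lc and Usp17ld and the bases of Usp17la that align with them.
Usp17lb: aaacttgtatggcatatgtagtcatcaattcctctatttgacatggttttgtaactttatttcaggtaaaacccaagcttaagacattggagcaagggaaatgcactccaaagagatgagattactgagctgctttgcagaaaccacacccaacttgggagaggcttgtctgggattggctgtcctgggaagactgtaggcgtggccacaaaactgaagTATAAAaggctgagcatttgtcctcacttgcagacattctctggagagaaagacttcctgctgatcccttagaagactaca
Usp17la: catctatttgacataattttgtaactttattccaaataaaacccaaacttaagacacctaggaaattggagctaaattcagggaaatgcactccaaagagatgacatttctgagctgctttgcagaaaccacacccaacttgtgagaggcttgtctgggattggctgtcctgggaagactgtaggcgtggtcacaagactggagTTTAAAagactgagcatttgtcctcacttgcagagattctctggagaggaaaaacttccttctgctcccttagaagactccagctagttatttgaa
Usp17lc: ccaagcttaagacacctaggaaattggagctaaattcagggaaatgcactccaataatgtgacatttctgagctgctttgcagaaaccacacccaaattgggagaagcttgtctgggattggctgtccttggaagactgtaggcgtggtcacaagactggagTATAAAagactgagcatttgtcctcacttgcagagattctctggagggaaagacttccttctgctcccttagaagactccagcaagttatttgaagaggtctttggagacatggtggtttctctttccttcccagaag
Usp17ld: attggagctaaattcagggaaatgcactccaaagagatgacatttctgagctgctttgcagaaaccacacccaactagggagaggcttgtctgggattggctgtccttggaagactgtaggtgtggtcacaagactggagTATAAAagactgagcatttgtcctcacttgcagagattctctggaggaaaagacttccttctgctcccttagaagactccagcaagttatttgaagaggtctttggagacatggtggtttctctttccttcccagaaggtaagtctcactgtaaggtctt
TATAAA, the core of a TATA box, was searched for on both strands, and so was GATTNNATC, the inner letters of the Dux site. TATAAA was in 4 of the 19 member windows that RefSeq supplied (21.1%) and in 13.6% of all 32851 windows of that length. It began at -31 in Usp17lb, at -88 in Usp17lc and at -110 in Usp17ld, on the strand of the gene and counted from the annotated start, and at -242 on the other strand in Pramel. In Usp17la the aligned bases began at -46 and read TTTAAA, a change A2T when positions are counted from 1 at the first base of TATAAA. GATTNNATC was in 0 of the 19 member windows and in 1.58% of all windows, which says only that these letters are not in those windows. The windows of Usp17lc and Usp17ld were identical over 89.7% of their length, those of Usp17la and Usp17lb over 83.7% and those of Usp17la and Usp17lc over 81.7%.

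Pramel4 (chr4:144058875-144059174, plus strand) and Pramel5 (chr4:144280417-144280716, minus strand) have start regions that were identical over 89% of the window. Capitals mark the 33 bases of each that differ from the other or have no partner in it.
Pramel4: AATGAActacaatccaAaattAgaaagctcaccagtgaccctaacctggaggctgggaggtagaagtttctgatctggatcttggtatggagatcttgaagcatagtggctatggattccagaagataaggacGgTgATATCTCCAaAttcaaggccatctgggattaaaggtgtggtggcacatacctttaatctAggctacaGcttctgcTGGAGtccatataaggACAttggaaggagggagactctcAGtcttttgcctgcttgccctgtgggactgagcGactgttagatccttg
Pramel5: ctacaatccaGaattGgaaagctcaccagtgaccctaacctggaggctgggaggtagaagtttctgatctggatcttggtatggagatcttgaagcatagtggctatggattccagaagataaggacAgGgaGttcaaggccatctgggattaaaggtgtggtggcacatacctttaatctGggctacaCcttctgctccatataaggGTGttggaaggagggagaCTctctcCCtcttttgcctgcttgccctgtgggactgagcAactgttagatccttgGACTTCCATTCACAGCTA
Neither window held TATAAA.

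The families were on in every kept group, and in each the spread between embryos was wide. In the 43 BxJ 2PN embryos the summed Usp17l counts ran from 519.6 to 4153 CPM with a median of 1234 CPM. The summed Pramef and Pramel counts there ran from 667 to 2708 CPM, with a median of 1074 CPM. Tcstv stood between 94.7 and 1410 CPM, with a median of 377 CPM, and Tdpoz between 143 and 734 CPM, with a median of 273 CPM. No BxJ 2PN embryo lacked a family. Within Usp17l, 1 copy held most of the counts: Usp17lb (ENSMUSG00000062369) took a median of 88.3% of the family's counts in BxJ 2PN embryos, Usp17lc 6.63% and Usp17la 0.715%. Shares of counts depend on transcript length as well as on level. Tcstv3 took a median of 55.3% of the Tcstv counts and Tdpoz1 63.0% of the Tdpoz counts.

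**Figure D1:**
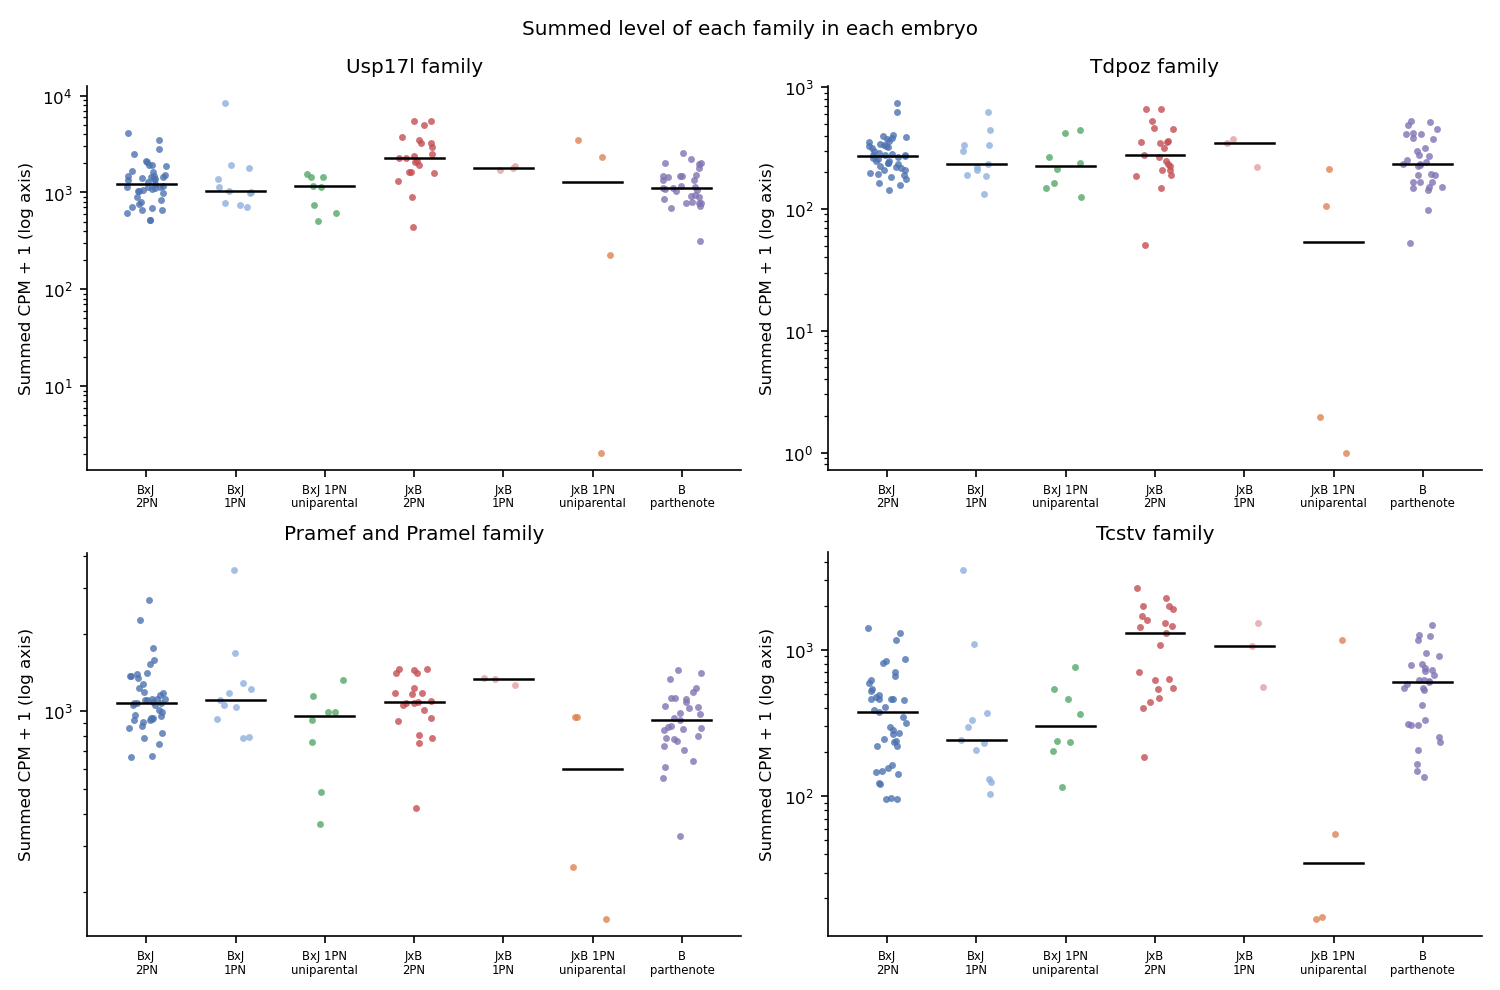
Summed level of each family in every kept embryo, in CPM plus 1 on a log axis, by group; each point is 1 embryo and the black line is the group's median. JxB 2PN embryos have the highest Tcstv median (1301 CPM). Below all other embryos lie 2 JxB uniparental embryos, for Usp17l at 1.06 and 224 CPM and for Tdpoz at 0 and 0.946 CPM. The next lowest Usp17l sum is 315 CPM, in a parthenote.

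Embryos high for one family tended to be high for some others, with large differences between groups. Over the 43 BxJ 2PN embryos, Spearman's rho was 0.689 between the Usp17l and Tdpoz sums (Pearson's r 0.784, or 0.693 without the 2 farthest embryos), 0.634 between Usp17l and Tcstv and 0.648 between Tdpoz and Tcstv. The Pramef and Pramel sum stood apart there, with a rho of 0.27 with Usp17l and -0.024 with Tcstv. Over the 31 parthenotes that sum had a rho of 0.729 with Usp17l and 0.784 with Tdpoz, while Usp17l and Tcstv had 0.354. Over the 21 JxB 2PN embryos the rho of Usp17l with Tcstv was 0.60 and with Tdpoz 0.496. These are descriptions. The sums share each library's total as denominator, and the Tcstv sum had a rho of -0.314 with the total count in BxJ 2PN, -0.574 in JxB 2PN and -0.443 in parthenotes. Single members followed the rest of their family to different degrees in BxJ 2PN embryos, with a median rho of 0.763 for Usp17l, 0.561 for Tdpoz and 0.172 for Pramef and Pramel. Tcstv1 and Tcstv3 had a rho of 0.901, and they may share reads, which was not tested.

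Genes whose symbols did not match the rule were ranked by their rho with each family's sum over the same 43 embryos. The ranking covered the 8773 such genes that averaged 10 CPM or more. Gm6189 (0.82), Gm29125 (0.815) and AC127331.6 (0.792) followed Usp17l most closely. Gm9117 (0.827), AC102268.2 (0.776) and Gm5543 (0.77) led for Tdpoz. For Pramef and Pramel the first was Cdc20, an activator of the anaphase-promoting complex, at 0.752, before Hipk3, a protein kinase, at 0.703 and Gm13102 at 0.679. Gm21818 (0.975), AF067061 (0.943) and BC147527 (0.938) led for Tcstv. Most of these symbols do not name a family, so unnamed copies of the members may be among them. Reads shared with the members could raise a rho, and this was not tested.

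The reciprocal 2PN embryos differed in most Usp17l genes and in both Tcstv genes. JxB 2PN embryos had a median Tcstv sum of 1301 CPM (184 to 2662) against 377 CPM in BxJ 2PN, and a median Usp17l sum of 2254 CPM (436 to 5512) against 1234 CPM. The ranges overlapped in both families. By edgeR's quasi-likelihood test with Benjamini-Hochberg adjustment over all 24380 genes tested, 10 members were higher in JxB 2PN and 2 lower at an adjusted p of 0.05. Among all genes 18.8% were higher and 19.2% lower, and the median log2 fold change was 0.35 over the members and -0.08 over all genes. By family, 5 of 6 Usp17l, 2 of 2 Tcstv, 1 of 5 Tdpoz and 2 of 13 Pramef and Pramel genes were higher. On simulated data a sizeable share of calls by this edgeR test were of unchanged genes. Calls with an adjusted p near 0.05 are therefore uncertain, here and below.

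Usp17la (ENSMUSG00000054568) had the largest rise. Its level was 0.259, 9.50 and 217 CPM (lowest, median and highest) in BxJ 2PN embryos and 1.86, 44.2 and 817 CPM in JxB 2PN embryos. In JxB, 18 of 21 embryos lay above the BxJ median and 5 above the highest BxJ embryo. The log2 fold change was 3.36 ± 0.46 (SE, adjusted p = 1.11e-09). Usp17lc, which ran from 3.54 to 424 CPM in BxJ (median 86.4) and from 90.7 to 376 CPM in JxB (median 159), lay above the BxJ median in 21 of 21 JxB embryos, at 0.92 on the log2 scale. Usp17lb rose by 0.81 ± 0.24 (SE, adjusted p = 0.00384), Usp17le by 0.95 and Usp17ld by 0.71, all on the log2 scale. Usp17le-ps, the pseudogene, was not called.

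Tcstv3 (ENSMUSG00000095821) ran from 34.1 to 1017 CPM in BxJ 2PN embryos (median 217) and from 106 to 1511 CPM in JxB 2PN (median 638), with 20 of 21 JxB embryos above the BxJ median and 6 above its highest embryo. It rose by 1.54 ± 0.29 on the log2 scale (SE, adjusted p = 7.68e-06), and Tcstv1 by 1.28 ± 0.30 (adjusted p = 0.000267). Nearly all values of both were not whole, so the 2 genes cannot be taken as separate measurements. Among Pramef and Pramel genes, Pramef12 ran from 5.78 to 38.5 CPM in BxJ (median 19.001) and from 11.7 to 211 CPM in JxB (median 36.7). It rose by 1.62 ± 0.21 (SE, adjusted p = 2.19e-10), with 9 of 21 embryos above the BxJ range, and Pramef25 by 0.67 (adjusted p = 0.0133). Pramel7 fell by 0.69 ± 0.23 (SE, adjusted p = 0.0118), from a median of 351 CPM to 235 CPM, with 19 of 21 embryos below the BxJ median. This fall of Pramel7 was also called by DESeq2 and limma voom. Pramel3 fell by 1.86 ± 0.62 (adjusted p = 0.0113), but was not called by DESeq2 (adjusted p = 0.26), by limma voom, which put it at -0.39 (adjusted p = 0.743), or by edgeR's older quasi-likelihood method. Tdpoz2 was the 1 Tdpoz gene called, at 0.75 (adjusted p = 0.0247), and it lost that call with DESeq2 and with limma voom, which put it at -0.119.

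The deposited list of embryos runs through the groups once and then adds further embryos. The labels do not call these listing sets batches, and 14 BxJ and 5 JxB 2PN embryos are in the later one. The Usp17l median was higher in JxB than in BxJ within each set, at 2251 against 1234 CPM in the first (16 and 29 embryos) and 2391 against 1277 CPM in the second. The Tcstv median was likewise 1380 against 347 CPM in the first and 626 against 456 CPM in the second. With the set as a covariate 10 members were again called higher and 2 lower. The JxB 2PN embryos had a median of 2522056 counts against 3867740 in BxJ 2PN, and a median sum of 1377 CPM of 15 oocyte-derived transcripts, RNA stored by the egg, against 2672 CPM. The part of depth and of oocyte-derived RNA in the difference was not tested.

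**Figure D2:**
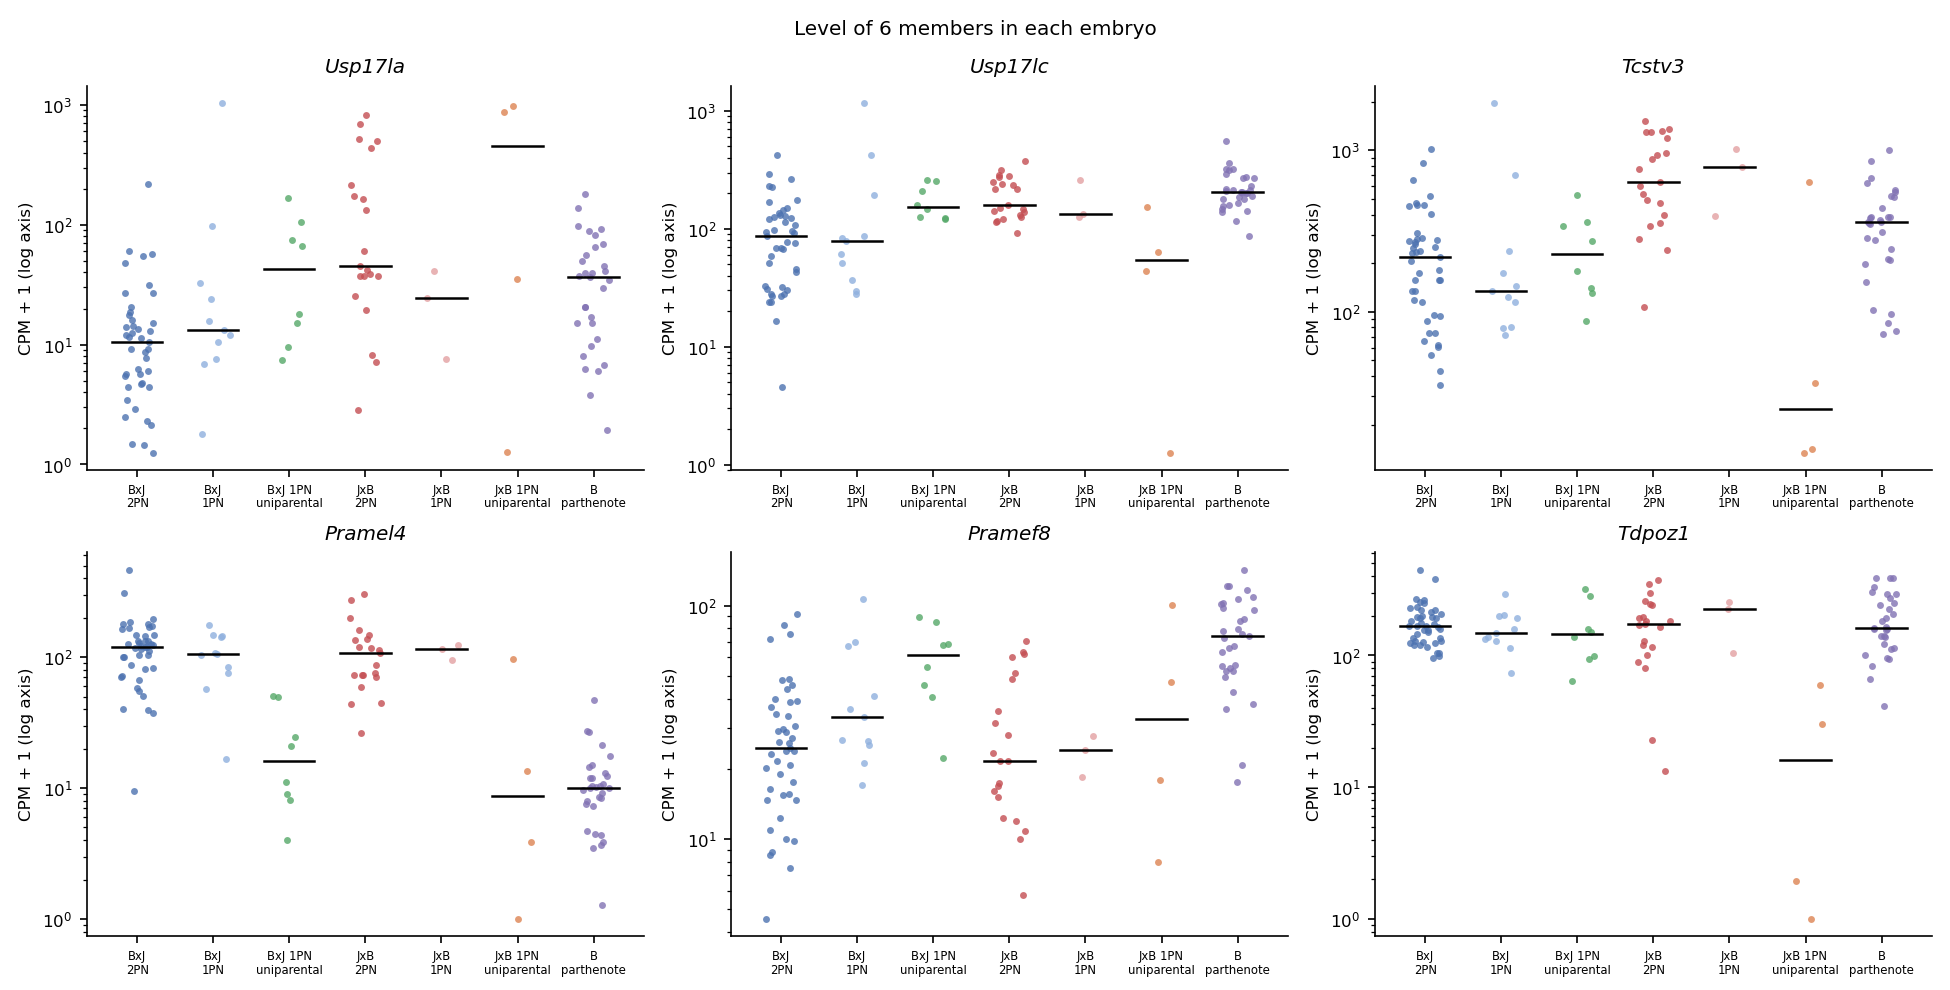
Level of 6 members in every kept embryo, in CPM plus 1 on a log axis, by group; each point is 1 embryo and the black line is the group's median. Usp17la and Tcstv3 have higher medians in JxB 2PN than in BxJ 2PN, and Pramel4 is lower in the parthenotes (median 9.06 CPM) than in BxJ 2PN (median 119 CPM).

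In the C57BL/6 parthenotes members of the same family moved in opposite directions. The Usp17l sum had a median of 1117 CPM (315 to 2531) and the Pramef and Pramel sum a median of 921 CPM (328 to 1451). Tdpoz stood at a median of 231 CPM (51.5 to 531) and Tcstv at 600 CPM (134 to 1481). By edgeR's test 4 members were higher than in BxJ 2PN and 10 lower, where 29.1% of all genes were higher and 21.8% lower, with a median log2 fold change of -0.39 over the members and 0.18 over all genes. Neither Tcstv gene was called. Under size factors by relative log expression the all-gene median was 0.38, and 4 members were higher and 7 lower. With that scaling 8915 genes were higher and 4210 lower, against 7106 and 5306.

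Pramel4 (ENSMUSG00000073724) changed most. It ran from 8.42 to 463 CPM in BxJ 2PN embryos (median 119) and from 0.283 to 45.8 CPM in parthenotes (median 9.06). All 31 parthenotes lay below the BxJ 2PN median, and 13 below the lowest BxJ 2PN embryo. It fell by 3.81 ± 0.27 on the log2 scale (SE, adjusted p = 8.37e-25). Its neighbour Pramel5, whose start region was 89% identical, fell by 0.57 ± 0.21 (SE, adjusted p = 0.0192), with medians of 92.7 and 69.3 CPM. Pramel5 stood at -0.47 with no call in a fit without embryo 9 of BxJ 1PN, which tested 25 members and in which the all-gene median moved from 0.18 to 0.28. Pramel5 was not called by DESeq2 or under the relative-log-expression size factors either. The share of Pramel4 in the family's counts was a median of 10.6% in BxJ 2PN embryos and 0.984% in parthenotes. Pramef17 fell by 1.44 ± 0.22 (SE, adjusted p = 1.83e-08) from a median of 80.4 CPM to 38.6 CPM, and Pramel7 by 0.99 (adjusted p = 1.98e-05). Pramel1 fell by 1.23 (adjusted p = 0.00256) and Pramel3, an X-linked gene, by 3.50 ± 0.59 (adjusted p = 1.71e-07).

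Pramef8 (ENSMUSG00000046862) went the other way, from 3.55, 23.5 and 90.8 CPM (lowest, median and highest) in BxJ 2PN to 16.5, 73.0 and 141 CPM in parthenotes. Of the 31 parthenotes, 29 lay above the BxJ 2PN median and 10 above its range. The rise was 1.16 ± 0.19 on the log2 scale (SE, adjusted p = 1.52e-07). Pramef6 rose by 0.92 ± 0.35 (SE, adjusted p = 0.022), with medians of 26.7 and 103 CPM, but no parthenote lay above the BxJ 2PN range, whose highest embryo had 848 CPM. The oocyte-derived transcripts had a median summed level of 4292 CPM in parthenotes and 2672 CPM in BxJ 2PN, and 4 of them rose and 1 fell. Their part in these changes was not tested.

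The Usp17l copies were called in both directions. Of the values of Usp17la, Usp17lb, Usp17lc and Usp17ld, 44.6% to 60.3% were not whole, so the copy that a read came from is uncertain. Usp17lc ran from 85.6 to 551 CPM in parthenotes (median 204) against a median of 86.4 CPM in BxJ 2PN, and 30 of 31 parthenotes lay above that median. It rose by 0.90 ± 0.24 on the log2 scale (SE, adjusted p = 0.00115) and Usp17la by 1.05 ± 0.44 (adjusted p = 0.0368). Usp17lb fell by 0.64 ± 0.22 (SE, adjusted p = 0.0107), from a median of 1072 CPM to 788 CPM, and Usp17ld by 0.66 (adjusted p = 0.0115). Neither of these 2 falls was called by DESeq2 or under the relative-log-expression size factors. Usp17lb's share of the family's counts was a median of 70.6% in parthenotes and Usp17lc's 18.4%, against 88.3% and 6.63% in BxJ 2PN. Of the Tdpoz genes, Tdpoz2 fell by 1.70 ± 0.29 (SE, adjusted p = 2.18e-07), from a median of 15.8 CPM to 3.97 CPM, and Tdpoz4 by 0.91 (adjusted p = 0.000338). With the listing set as a covariate Usp17la and Pramef6 were no longer called, Pramef20 and Pramel6 were called lower, and 2 members were higher and 12 lower in all.

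**Figure D3:**
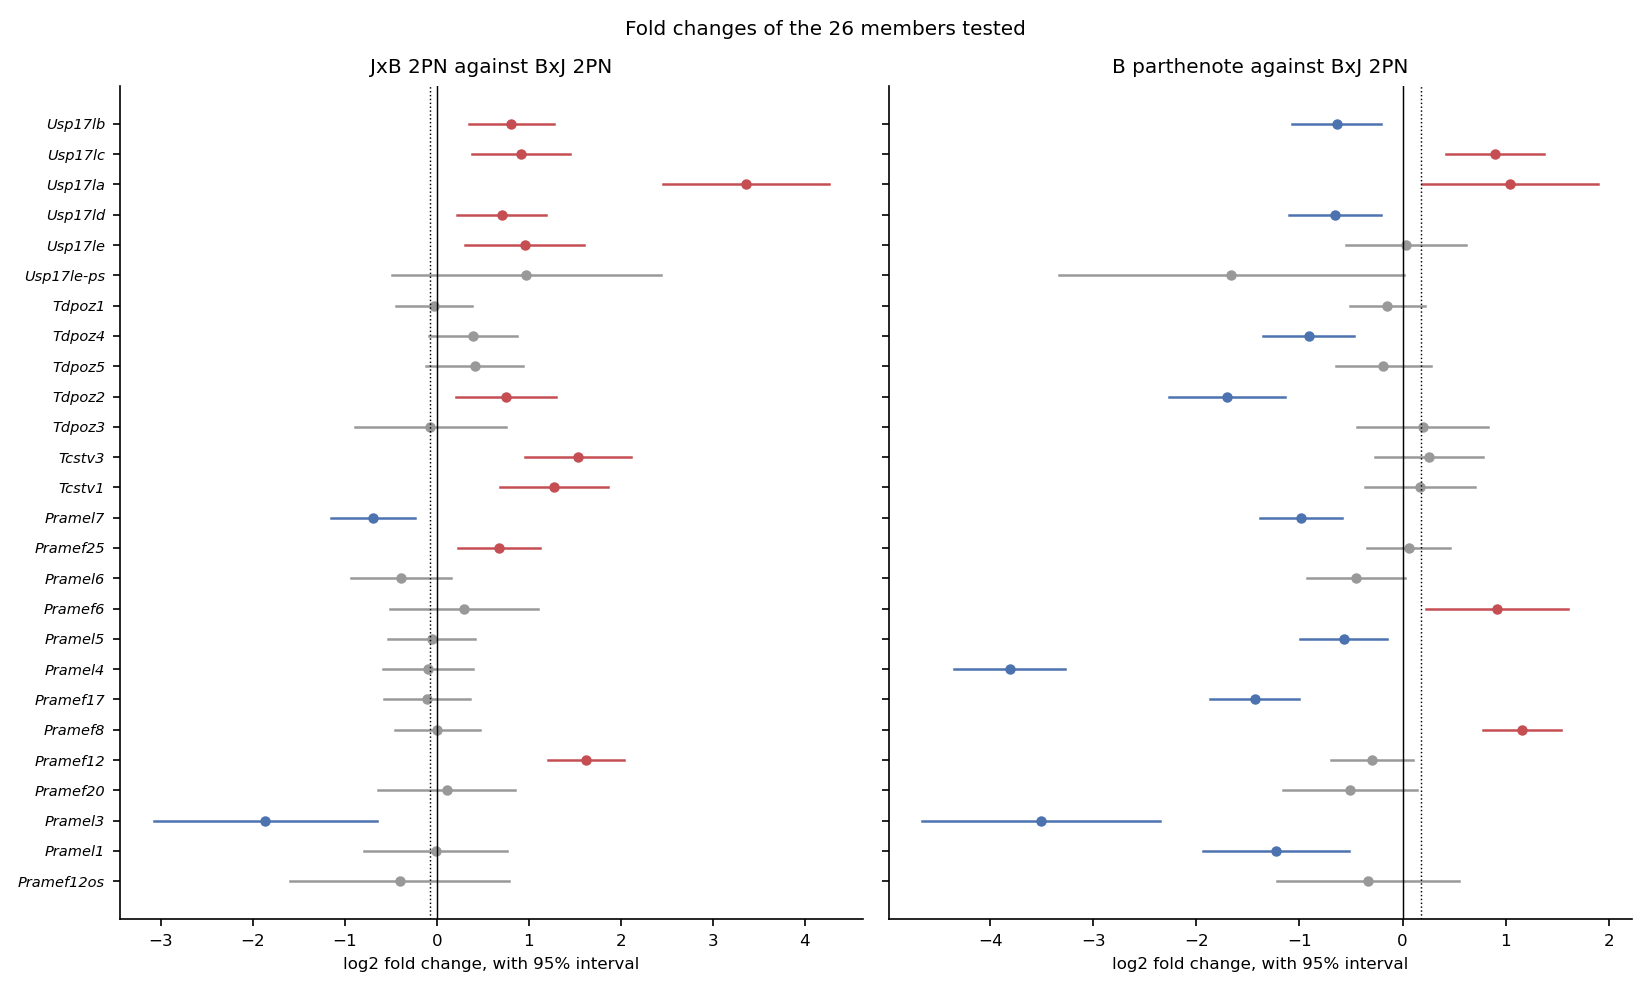
Log2 fold change of the 26 tested members with its 95% interval, in JxB 2PN against BxJ 2PN on the left and in C57BL/6 parthenotes against BxJ 2PN on the right; red points were called higher, blue lower and grey not called, and the dotted line is the median of all genes. All 5 called Usp17l genes lie to the right in the left panel, while the Usp17l calls in the right panel fall on both sides.

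The 8 BxJ uniparental embryos were set against the same 43 BxJ 2PN embryos, so their fold changes share those controls with the parthenotes and with JxB 2PN. By edgeR's test 1 member was higher and 5 lower, all of them Pramef or Pramel genes, where 18.5% of all genes were higher and 13.2% lower. The median log2 fold change was -0.30 over the members and 0.19 over all genes. Under the relative-log-expression size factors the all-gene median was 0.41, 3 members were higher and 5 lower, and 6117 genes were higher and 2395 lower, against 4500 and 3213. Pramel4 ran from 3.02 to 49.6 CPM with a median of 15.003 CPM, below the BxJ 2PN median of 119 CPM in 8 of 8 embryos. It fell by 2.73 ± 0.46 on the log2 scale (SE, adjusted p = 1.67e-06). Pramel5 fell by 1.34 (adjusted p = 0.00492), Pramef17 by 1.09 (adjusted p = 0.0173) and Pramel7 by 0.99 (adjusted p = 0.0221). The other lower call was Pramel3, at -8.34, which rests on 1 count in the 8 embryos. Many BxJ 2PN embryos also had almost no Pramel3, as described below. Pramef8, at 21.3 to 88.1 CPM (median 60.3), rose by 0.84 ± 0.30 (SE, adjusted p = 0.0243). Without embryo 10 of the 8, 3 members were called, and Pramel7, Pramef17 and Pramef8 stood at -0.83, -0.92 and 0.70 with no call. Pramel7 and Pramef17 also lost their call without embryo 19 or embryo 22, and Pramef8 without embryo 14. Pramel7 was not called by the older quasi-likelihood method. Of the oocyte-derived transcripts 8 were higher and 1 lower than in BxJ 2PN, with a median sum of 7354 CPM, and their part in these changes was not tested.

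Usp17l and Tcstv gave no call in that comparison, with 0 of 8 genes called by edgeR at the adjusted threshold, and 2 Usp17l genes and 1 Tcstv gene at an unadjusted p under 0.05. DESeq2 called 0 of them and limma voom 1, Usp17lc (adjusted p = 0.0384). Usp17lb took a median of 73.5% of the Usp17l counts and Usp17lc 17.2%. Set directly against the 31 parthenotes, the 8 embryos had 1 member called higher and 0 lower, where 3.41% of all genes were higher and 1.57% lower, and 5 members had an unadjusted p under 0.05. DESeq2 called 0 members and limma voom 1. The call was Pramef12, with medians of 35.8 and 16.6 CPM, at 1.00 ± 0.31 on the log2 scale (SE, adjusted p = 0.0415). It was lost in 7 of 9 fits that each left out 1 embryo, all but those without embryo 19 or embryo 22, with values from 0.87 to 1.12.

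Pramel3 counts of 10 or more were seen only in embryos with few counts of Y-linked genes. This grouping was chosen after the values were seen, so it is a description. The summed counts of Ddx3y, Eif2s3y, Kdm5d, Uty and Usp9y were at least 89 or at most 32 in every kept embryo. Among the 1PN and 2PN embryos with both parental genomes, 40 had at least 50 Y-linked counts, and 0 of these had 10 or more Pramel3 counts, the highest having 2.83. Of the 38 with fewer than 50 Y-linked counts, 31 had 10 or more. In BxJ 2PN these were 19 of 20 embryos, with a median of 141.8 counts, and in JxB 2PN 8 of 13, with a median of 24 counts and a highest of 50.5. Of the 43 embryos without a paternal genome, none of which reached 50 Y-linked counts, 2 had 10 or more Pramel3 counts, both parthenotes, the highest having 164.5. In the 8 BxJ uniparental embryos there was 1 Pramel3 count in all, against 3707 in the 43 BxJ 2PN embryos, a level 618.4 times lower per gene count (exact 95% interval 110.9 to 24436.7, counting error only). In the 4 JxB uniparental embryos there were 0, against 293.5 in JxB 2PN, at least 19.6-fold lower with a floor of 3 counts over the group.

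**Figure D4:**
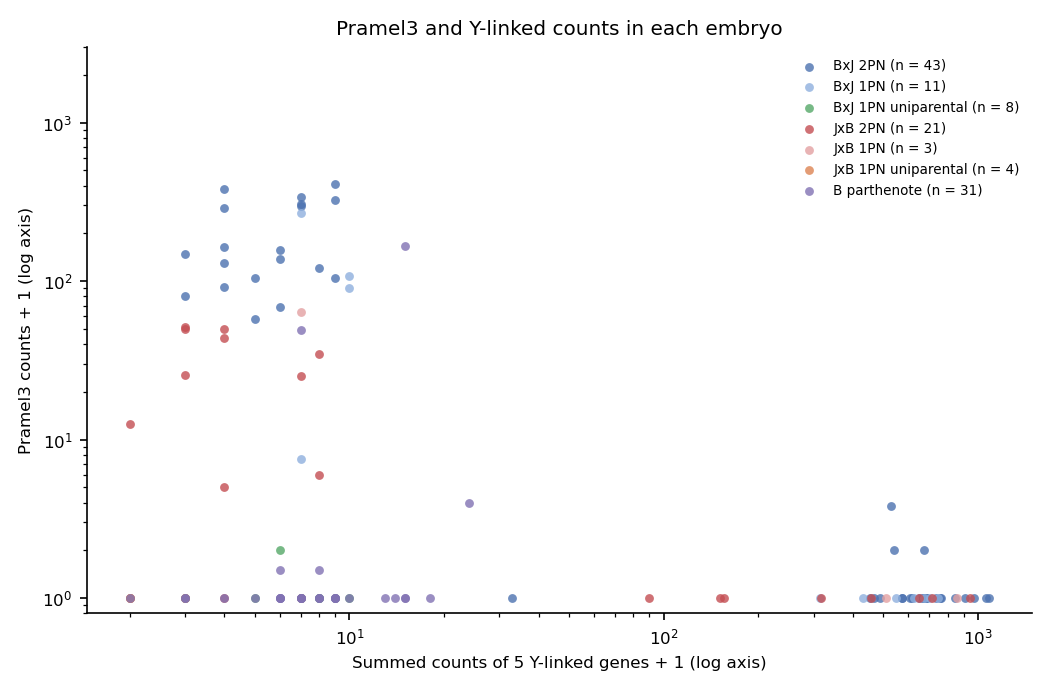
Pramel3 counts plus 1 against the summed counts of 5 Y-linked genes plus 1, both on log axes; each point is 1 kept embryo, by group. Embryos with at least 50 Y-linked counts have at most 2.83 Pramel3 counts, and most embryos with a paternal genome and fewer Y-linked counts have 10 or more.

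In the biparental 1PN embryos of BxJ the 3 called members rested on 1 embryo. By edgeR's test Usp17la rose by 2.92 ± 0.54 on the log2 scale (SE, adjusted p = 0.000441), Pramef6 by 2.26 ± 0.45 (adjusted p = 0.00154) and Usp17le by 1.63 ± 0.38 (adjusted p = 0.0255), while 0.197% of all genes were higher and none lower. The median log2 fold change was 0.23 over the members and -0.01 over all genes. Embryo 9 had 1027 CPM of Usp17la where the other 10 had 0.801 to 96.0, 2079 CPM of Pramef6 where they had 23.1 to 179, and 640 CPM of Usp17le where they had 3.67 to 56.6. It was above all other embryos of its group in each family sum: 8311 CPM for Usp17l, 627 for Tdpoz, 3540 for Pramef and Pramel and 3511 for Tcstv, against group medians of 1047, 234, 1102 and 239 CPM. Pramef6 alone took 58.7% of its Pramef and Pramel counts. Embryo 9 was also the lowest of its group for Pramel4 (15.8 CPM) and Pramel7 (191 CPM), so not every member was high. It had 2025580 counts, the fewest of its group, and 13633 CPM of the Zscan4 and Dux-linked list against a group median of 2628 CPM. Limma voom called 0 members with it in. Without it 0 members were called, and Usp17la, Pramef6 and Usp17le stood at 0.14, -0.25 and -0.28.

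The 3 JxB 1PN embryos gave no call. Their Usp17l sums were 1894, 1720 and 1771 CPM in embryos 4, 5 and 6, and their Tcstv sums 1515, 556 and 1054 CPM. All of these lay inside the JxB 2PN range. For Pramef and Pramel the sums were 1262, 1348 and 1334 CPM, and for Tdpoz 374, 220 and 348 CPM. By edgeR 0 members passed in either direction, where 0.0082% of all genes were higher, and 2 members had an unadjusted p under 0.05. DESeq2 and limma voom called 0 members each, though over all genes DESeq2 called 5 higher and 659 lower. Without the filter on low counts edgeR called 1 member lower. Usp17la stood at 23.3, 6.56 and 40.3 CPM in these embryos. The difference between crosses in the 1PN effect was called for 0 members by edgeR and for 0% of all genes. At an unadjusted p under 0.05 it held 4 members. DESeq2 called 2 members, both more negative in JxB, where over all genes it called 3 more positive and 485 more negative. Limma voom called 0 members.

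The JxB uniparental embryos differed widely from each other, and 2 of the 4 had low Usp17l and almost no Tdpoz. The Usp17l sums of embryos 1, 2, 3 and 7 were 1.06, 224, 3491 and 2331 CPM. Their Tdpoz sums were 0, 0.946, 210 and 104 CPM, and a floor of 3 counts corresponded to 0.796, 0.852, 1.96 and 2.99 CPM. Embryos 1 and 2 lay below every JxB 2PN embryo in both families, whereas embryos 3 and 7 lay within the JxB 2PN ranges of 436 to 5512 and 49.7 to 658 CPM. Tcstv divided them otherwise, at 13.9, 54.4, 1174 and 13.5 CPM against 184 to 2662 CPM in JxB 2PN, so that 3 of the 4 were below that range. The Pramef and Pramel sums were 247, 155, 952 and 948 CPM.

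Embryos 1 and 2 had 3768466 and 3521234 counts against 1532065 and 1002464 in embryos 3 and 7. Counts were seen in 12621, 17227, 16516 and 16062 genes in embryos 1, 2, 3 and 7, so embryo 1 had the fewest genes detected of the 4. Of the 27 members 16, 11, 3 and 3 were at 0 in the 4 embryos. What remained in embryo 1 was mostly Pramef8 at 99.8 CPM, Pramef12 at 62.6, Pramef20 at 45.6 and Pramef6 at 38.7, and in embryo 2 Pramef20 at 74.7 and Pramef8 at 46.3, beside Usp17l. Embryos 3 and 7 had Usp17la at 980 and 863 CPM, above the highest JxB 2PN embryo (817 CPM). The 15 oocyte-derived transcripts summed to 28512, 24315, 4466 and 5103 CPM in the 4 embryos against 593 to 7592 CPM in JxB 2PN. The Zscan4 and Dux-linked genes summed to 47.9, 200, 5151 and 5402 CPM against 1752 to 11690 CPM. Not all genes of that list were low in this group. By edgeR's test Duxf3 was higher than in JxB 2PN, at 2.59 on the log2 scale (adjusted p = 1.3e-05), while 3 were lower. The part of the oocyte-derived, Zscan4 and Dux-linked genes in the low family sums was not tested.

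**Figure D5:**
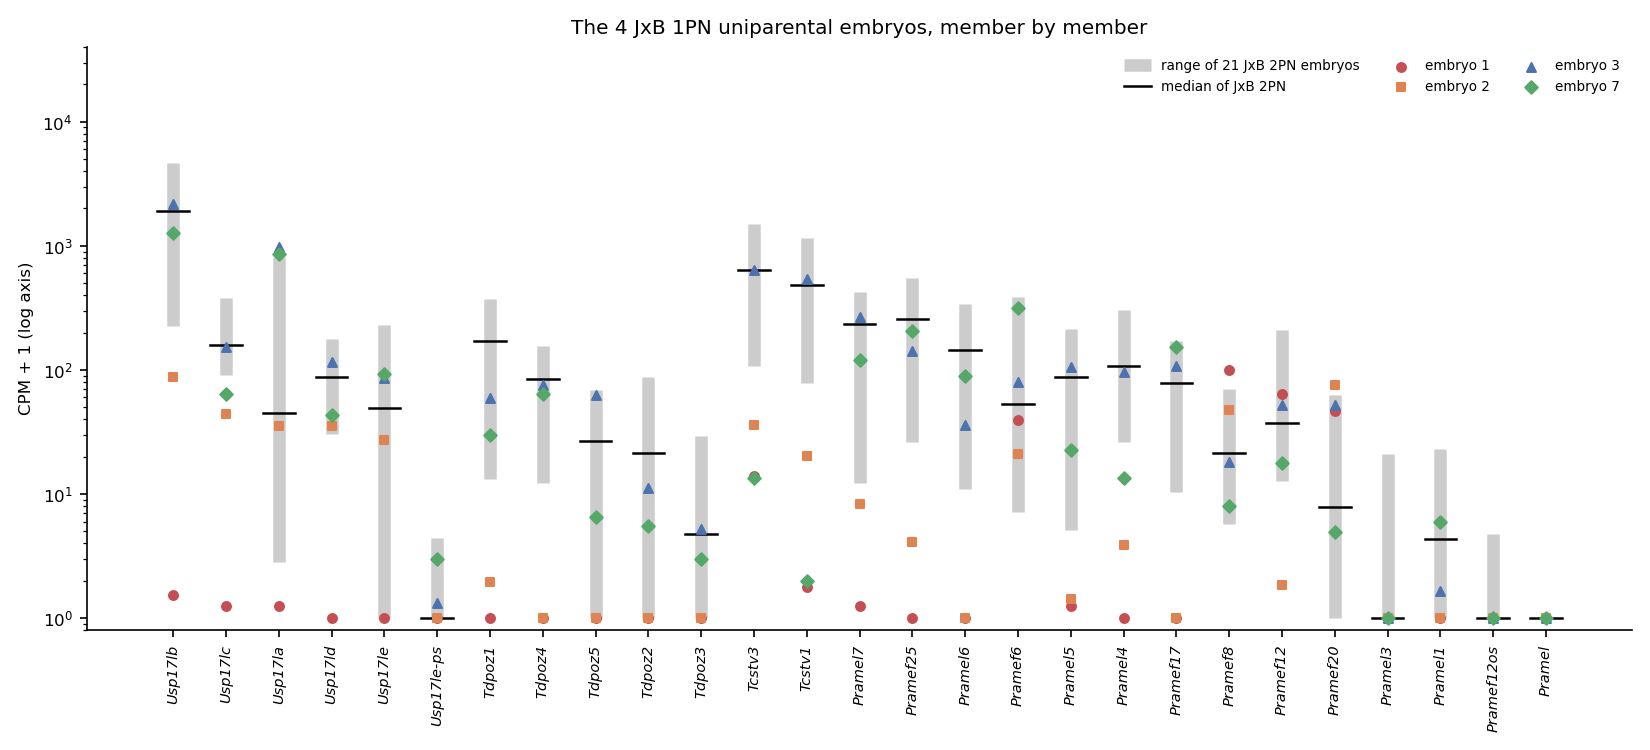
Level of each member in the 4 JxB uniparental embryos (points, numbered by embryo) against JxB 2PN (grey bar, range of 21 embryos; black line, median), in CPM plus 1 on a log axis. Embryos 1 and 2 lie below the grey bars of Usp17lb and Tdpoz1, and embryos 1, 2 and 7 below those of Tcstv1 and Tcstv3.

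Against JxB 2PN, edgeR's test called 1 member higher and 12 lower, where 14.7% of all genes were higher and 20.1% lower. The median log2 fold change was -1.69 over the members and -0.64 over all genes. The lower ones were 3 of 5 Tdpoz, 2 of 2 Tcstv, 2 of 6 Usp17l and 5 of 13 Pramef and Pramel genes. Tdpoz1 (ENSMUSG00000094084) had 0, 0.946, 58.6 and 29.1 CPM in embryos 1, 2, 3 and 7 and 12.2 to 371 CPM in JxB 2PN (median 172), so that 4 of 4 lay below the JxB 2PN median. It fell by 3.41 ± 0.60 on the log2 scale (SE, adjusted p = 2.83e-06). Tdpoz2 fell by 3.73 ± 0.95 (SE, adjusted p = 0.000922), Pramel6 by 2.71 (adjusted p = 0.00242), Pramel4 by 2.40 (adjusted p = 0.00237) and Tcstv3 fell by 2.25 ± 0.75 (adjusted p = 0.013). The other falls were Pramel5 by 1.87, Pramef25 by 1.84, Tcstv1 by 1.79, Usp17lc by 1.74, Tdpoz4 by 1.63, Usp17lb by 1.45 and Pramel7 by 1.37. Pramef20 rose by 1.85 ± 0.63 (SE, adjusted p = 0.0148), at 45.6, 74.7, 50.9 and 3.99 CPM against a JxB 2PN median of 6.82 CPM. DESeq2 (adjusted p = 0.0646) and the older quasi-likelihood method did not call this rise of Pramef20, and without embryo 2 it stood at 1.42 (adjusted p = 0.174). DESeq2 did not call the falls of Tdpoz4, Usp17lb and Pramel7.

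These calls depended on embryos 1 and 2. Without embryo 1, 5 members were called, and without embryo 2, 4, with Tdpoz1, Tdpoz2, Pramel4 and Pramel6 called in each case. With both left out only Tdpoz1 was called (adjusted p = 0.0496). The scaling mattered too: under the relative-log-expression size factors 1 member was higher and 7 lower, and the all-gene median moved to -0.27, with 4610 genes higher and 3811 lower against 3582 and 4900. The test of the difference between crosses in the uniparental effect called 5 members, all more negative in JxB, where 4.09% of all genes were more positive and 11.8% more negative. These were Tdpoz1 at -3.09 ± 0.65 (SE, adjusted p = 0.000293), Pramel6 at -2.43 (adjusted p = 0.0291), Usp17lc at -2.33 (adjusted p = 0.0279), Pramef25 at -1.87 (adjusted p = 0.0326) and Pramef12 at -1.65 (adjusted p = 0.0351). Without embryos 1 and 2, 0 members were called, and leaving out 1 embryo at a time gave 1 (without embryo 2) to 11 (without embryo 3). In this difference too, the lack of a paternal genome and of the alleles of 1 strain cannot be told apart.

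Other genes of the 2-cell programme gave a frame for the families. The shares of all genes called higher and lower belong beside the counts of this and the following lists. They were 18.8% and 19.2% in JxB against BxJ 2PN, and 29.1% and 21.8% in parthenotes. They were 18.5% and 13.2% in BxJ uniparental, 14.7% and 20.1% in JxB uniparental, and 3.41% and 1.57% in BxJ uniparental against parthenotes. Counts near these shares say nothing particular about a list. Of 12 Zscan4 and Dux-linked genes, 5 were higher in JxB 2PN than in BxJ 2PN and 0 lower, among them Zscan4d at 1.41 on the log2 scale, Zfp352 at 1.09 and Ddit4l at 1.04. In parthenotes 7 were higher and 2 lower, with Zscan4c at 1.93 and Zscan4a at 1.64, and with Sp110 at -2.03. In BxJ uniparental embryos 0 were higher and 1 lower, in JxB uniparental embryos 1 and 3, and between BxJ uniparental embryos and parthenotes 1 and 0. The 1 higher in JxB uniparental embryos was Duxf3, the Dux gene of the list, at 2.59. Tmem92 at -2.06 and Arg2 at -1.88 were among the 3 lower. In BxJ 1PN embryos 2 were higher, Zscan4b at 2.39 and Zscan4e at 2.34, and in JxB 1PN 0. Without embryo 9 of BxJ 1PN, which had the high sum of this list given above, 0 genes of the whole table were called in that comparison, these 2 included.

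Of 7 Obox homeobox genes, 0 were higher and 5 lower in JxB 2PN than in BxJ 2PN, and 0 and 3 in parthenotes. The uniparental embryos had 3 higher and 3 lower in BxJ and 4 and 3 in JxB, and 2 were higher than in parthenotes. Of 12 regulators of the programme, positive and negative ones together, 3 were higher and 5 lower in parthenotes. Chaf1a, a chromatin assembly factor subunit, was at -1.50 and Ncl, nucleolin, at -0.98, while Chaf1b was higher, at 0.86. As the list mixes both kinds, its counts give no direction for the programme. The counts were 0 and 6 in BxJ uniparental, 1 and 5 in JxB uniparental, 0 and 0 between BxJ uniparental embryos and parthenotes, and 1 and 3 between the 2PN groups. In JxB uniparental embryos Nelfa, a negative elongation factor subunit, was at -3.22 and Trim28 at -2.83, while Lin28a was higher, at 2.55. Among 5 relatives of the families that are not part of these clusters, Spop was at -1.19 in parthenotes, where 0 were higher and 2 lower. The counts were 0 and 0 in BxJ uniparental, 0 and 1 in JxB uniparental, 1 and 0 against the parthenotes and 0 and 1 between the 2PN groups. None of these lists had a call in 1PN embryos of either cross, apart from the 2 Zscan4 genes, whose calls rested on embryo 9.

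Transcripts of the oocyte and of other cell types were counted as well. Of 15 oocyte-derived genes, 7 were higher in JxB uniparental embryos, 5 in BxJ uniparental embryos than in parthenotes, and 3 were higher and 3 lower in JxB 2PN than in BxJ 2PN. Of 10 cumulus and granulosa cell markers, of which 7 were tested, 3 were higher and 2 lower in parthenotes, 1 and 2 in BxJ uniparental, 0 and 2 in JxB uniparental, 0 and 0 against the parthenotes and 1 and 1 between the 2PN groups. Their sum ran from 59.6 to 506 CPM in BxJ 2PN. Of 8 sperm and testis markers, of which 5 were tested, the counts were 2 and 2, 1 and 2, 1 and 0, 1 and 0, and 0 and 2 in the same order. These 3 lists had no call in 1PN embryos of either cross.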

How the data were processed

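RNA of 125 single 2-cell embryos was measured with SMART-Seq v4 and Nextera XT libraries, per the labels' protocols, and 121 were kept. The deposited table holds estimated counts per gene, not normalized and not all whole (28.5% of values above 0 were not), made by the authors with HISAT2 2.0.5 and featureCounts 2.0.0 on GRCm38, per the submitters' processing notes. The rule for multi-mapped reads and strand was not given in the sources used here. Groups were taken from the sample labels.

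The members and the gene lists were chosen with earlier results of these data known. Counts were rounded and fitted with edgeR 4.0.16 (R 4.3.3) on 24380 genes: TMM factors, filterByExpr by group, means of the 7 groups, the newer quasi-likelihood method and F test, Benjamini-Hochberg adjustment over all genes and a threshold of 0.05. CPM and family sums used unrounded counts over the total gene count, and sums were given no test. The script was tested on simulated data, in which a sizeable share of calls were of unchanged genes. Libraries of a group differed by more than counting noise, so none was counted as a duplicate. Depth was 533276 to 4887274 counts. The exact interval of Pramel3 and the floors cover counting error only, and the reads carry no molecular identifiers. The SEs and intervals of fold changes come from edgeR's F statistic and take in the spread between embryos.

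Named genes were the 3 members of each family with the highest mean CPM, up to 5 higher and 5 lower called members per comparison by size of change, Usp17la and Pramef6, the 3 genes most alike to each family and up to 3 genes per list by p. Other called members were named to account for all. Alternatives were DESeq2 1.42.0, limma voom 3.58.1, size factors by relative log expression, no filter, a replicate block, the listing set, embryos under 1000000 counts left out, TMM-scaled sums and each replicate left out in the groups of up to 11 embryos. Added after seeing the data were the older quasi-likelihood method and leaving out JxB uniparental embryos 1 and 2. Gene symbols were matched for 43266 of 43421 genes.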

Additional observations from a re-analysis of the deposited data

Results flagged for a closer look

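In the groups of 4 to 10 embryos, 56 sets of values were searched for an embryo far from the others of its group, and 7 were found, where chance gives about 1 in 20. The sets are not separate, since a family sum holds its members. In the JxB uniparental group, embryo 3 stood above the other 3 embryos, with a Tcstv sum of 1174.12 CPM, Tcstv3 at 635.14 CPM, Tcstv1 at 538.98 CPM, Pramel4 at 95.3 CPM and Tdpoz5 at 61.68 CPM. These values of embryo 3 all lay inside the JxB 2PN ranges, which were 184 to 2662 CPM for the Tcstv sum and 25.3 to 305 CPM for Pramel4. Embryo 7 stood above the other embryos of its group for Pramel1, at 4.99 CPM. In the BxJ uniparental group, embryo 22 stood above the other 7 for Pramel1, at 22.24 CPM. Values of Pramel1 are low throughout, and the 4 Tcstv and Tdpoz values come from 1 library, so they are not separate signs.

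The fold change of uniparental against 2PN embryos differed between the crosses for 5 members by edgeR's test of the difference itself, more negative in JxB each time. The lack of a paternal genome and of the alleles of 1 strain cannot be told apart in these fold changes. The differences were -3.09 on the log2 scale for Tdpoz1, -2.43 for Pramel6, -2.33 for Usp17lc, -1.87 for Pramef25 and -1.65 for Pramef12. None of the 5 was called without JxB uniparental embryos 1 and 2, which held 28512 and 24315 CPM of oocyte-derived transcripts. The part of those transcripts in the difference was not tested.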

How the results depend on the processing

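The counts of members called were within 1.5 times the reported ones except as follows. For 1PN against 2PN in BxJ (3), limma voom and the replicate block gave 0, and leaving out 1 embryo gave 0 to 3, with Pramef6 at -0.254 to 2.393 and Usp17le at -0.283 to 1.767. In JxB (0) no filter gave 1. For uniparental against 2PN, the replicate block gave 3 in BxJ (6) and 0 in JxB (13). In JxB the relative-log-expression size factors and the older quasi-likelihood method gave 8 each, leaving out embryos 1 and 2 gave 1, and leaving out 1 embryo gave 4 to 15, against 3 to 8 in BxJ. For BxJ uniparental embryos against parthenotes (1), DESeq2, those size factors, the older method and the replicate block gave 0, no filter gave 4 and leaving out 1 embryo 0 to 1. For the difference between crosses in the 1PN effect (0), DESeq2 gave 2, where it called 3 genes more positive and 485 more negative, and no filter gave 3. In the uniparental effect (5), those size factors gave 3, limma voom 14, the older method 2, leaving out embryos 1 and 2 gave 0, and leaving out 1 embryo 1 to 11. Tdpoz2 in JxB against BxJ 2PN reversed to -0.119 with limma voom. TMM scaling moved the mean sums of JxB 1PN from 1795 to 1981.671 CPM for Usp17l and from 1315 to 1449.298 CPM for Pramef and Pramel. Otherwise the cause was not tested.

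The replicate numbers do not pair the embryos: deviations of same-numbered embryos correlated over 0.1 in 2 of 11, 1 of 3, 3 of 8, 0 of 4, 5 of 31, 3 of 8 and 3 of 21 pairs. The block left fewer embryos, and gave 15 calls for parthenotes and 10 for JxB against BxJ 2PN, against 14 and 12. No block was fitted for the differences between crosses. Depth limits the low members most: a floor of 3 counts was 0.796 to 2.99 CPM in the JxB uniparental embryos.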
